A study of Mus musculus with 6 samples.

Results

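The 9 genes described here encode the machinery that releases calcium from the sarcoplasmic reticulum of heart muscle and takes it back up: Atp2a2, Pln, Ryr2, Casq2, Slc8a1, Camk2d, Hrc, Trdn and Jph2. They were taken by name as a set, and all 9 were found among the 55401 gene identifiers of the deposited files. Messenger RNA of the myocardium was sequenced from male WT (wild-type) mice, with 3 libraries from mice given a PBS injection (the controls) and 3 from mice given an STZ injection. Streptozotocin (STZ) destroys pancreatic beta cells, and the series relied on it to induce diabetes. All libraries carry a time label of 8 weeks, whose starting point the labels do not give. Neither the age of the mice, nor their blood glucose, nor whether each library came from a separate animal is given in the sources used here, so p-values reflect the variation among these libraries alone, and that variation may be technical.

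In each heartbeat, calcium entering through the surface membrane opens the ryanodine receptor, the release channel of the sarcoplasmic reticulum, and the released calcium triggers contraction. Relaxation follows as the pump SERCA returns calcium to the reticulum and the sodium-calcium exchanger carries the rest out of the cell. Phospholamban slows the pump until it is phosphorylated, and a high ratio of phospholamban protein to pump protein is known for slower uptake. Calsequestrin stores calcium inside the reticulum, and triadin and the histidine-rich calcium-binding protein sit with it at the release channel.

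Values are FPKM, sequenced fragments of a gene divided by its transcript length and by library size. They are per length, so levels may be compared between genes, with the limit that they depend on the transcript models used. The number of fragments per library is not given in the sources used here, so the depth behind each value is unknown. The file of PBS replicate 3 stops after 7711 genes (13.9%). It lists 5 of the 9 genes (Atp2a2, Ryr2, Casq2, Trdn and Jph2), which are given with its values, and the test over all genes used PBS replicates 1 and 2 and the 3 STZ libraries. FPKM summed to between 531384 and 589719 in these 5 libraries, and mitochondrial genes made up 42.0% to 47.3%. Ventricular and general cardiac muscle genes were abundant in all of them, with Myh6 between 2219 and 3083 FPKM. The atrial light chain Myl7 was at 262, 37.9 and 0.21 FPKM in PBS replicates 1, 2 and 3 and at 357, 73.7 and 0.28 FPKM in the STZ replicates. The myosins of skeletal muscle Myh1, Myh2 and Myh4 were at or below 0.02 FPKM in the 5 libraries.

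The sequences before the transcription start are shown for 4 genes that bracket the results: Hrc, whose fall passed the test, Ryr2, which had the largest measured difference, and Pln and Casq2, which did not pass. They are from RefSeq (GRCm38.p6), which held an entry for 7 of the 9 genes, all but Atp2a2 and Trdn. Each runs 5′ to 3′ from base -250 to base -21 relative to the start. The regions are chr7:45335019-45335248 (plus strand) for Hrc, chr13:12106966-12107195 (minus strand) for Ryr2, chr10:53337436-53337665 (plus strand) for Pln and chr3:102086165-102086394 (plus strand) for Casq2. Capitals mark matches, on either strand, to an E-box (CANNTG), a GATA site (AGATAA), an M-CAT site (CATTCC), a MEF2 motif or a CArG box.
Hrc: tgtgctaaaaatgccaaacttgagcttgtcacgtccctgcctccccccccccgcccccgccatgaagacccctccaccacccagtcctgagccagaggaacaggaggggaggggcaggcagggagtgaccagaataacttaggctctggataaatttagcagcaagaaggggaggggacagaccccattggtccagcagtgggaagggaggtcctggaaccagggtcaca
Ryr2: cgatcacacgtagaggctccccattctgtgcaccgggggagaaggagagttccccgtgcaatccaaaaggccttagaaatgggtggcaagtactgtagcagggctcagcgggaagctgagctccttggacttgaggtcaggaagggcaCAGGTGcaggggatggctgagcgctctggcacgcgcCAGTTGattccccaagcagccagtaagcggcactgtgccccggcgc
Pln: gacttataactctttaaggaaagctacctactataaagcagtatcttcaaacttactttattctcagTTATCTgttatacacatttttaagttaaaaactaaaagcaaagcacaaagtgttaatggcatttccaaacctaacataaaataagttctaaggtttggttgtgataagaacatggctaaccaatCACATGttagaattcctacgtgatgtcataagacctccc
Casq2: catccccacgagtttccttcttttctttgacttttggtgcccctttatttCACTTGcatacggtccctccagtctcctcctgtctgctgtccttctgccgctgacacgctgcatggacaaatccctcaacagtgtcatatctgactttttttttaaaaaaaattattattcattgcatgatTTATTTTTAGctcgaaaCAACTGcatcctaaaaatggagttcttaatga

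The 4 windows differ in composition, with 59.6% G and C in Hrc, 61.3% in Ryr2, 40.0% in Casq2 and 32.2% in Pln. Casq2 held a MEF2 motif at bases -69 to -60, which 2.72% of 32522 promoter windows of the same length also held. Its E-boxes lay at -200 to -195 and at -52 to -47. Ryr2 held E-boxes at -102 to -97 and at -66 to -61, and Pln held one at -59 to -54, where 63.5% of all windows held an E-box. Pln also held a GATA site at -183 to -178, present in 9.46% of windows. Hrc held 0 matches to the 5 motifs, which says only that these letters are not in this window. No matches overlapped each other. CArG boxes (1.41% of windows) and M-CAT sites (11.7%) were in none of these 4 windows.

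Of the 9 genes only Hrc passed the test in STZ hearts, where it fell to 55.7% of its PBS level. Atp2a2 and Ryr2 were lower in every STZ library than in any PBS library, with means of 57.0% and 43.5% of PBS, but neither passed the test over all genes. Pln, Trdn and Camk2d had means of 98.6%, 97.2% and 93.3% of PBS. Of the 9 genes, 1 passed as lower and 0 as higher (limma, adjusted p of 0.05 over 11556 genes). At an unadjusted limma p under 0.05, 5 were lower, where 10.2% of tested genes were, and 0 were higher, where 16.4% were. Over all genes tested 2.17% passed as lower and 3.64% as higher. For 5 of the 9 (Atp2a2, Ryr2, Slc8a1, Hrc and Jph2) all STZ libraries lay below PBS replicates 1 and 2, where 18.8% of all tested genes did. All 9 log2 fold changes were negative, where 43% of tested genes had a negative sign, and their median was -0.47 against 0.06 over all genes tested. The share of higher genes among all 672 genes that passed was 62.6%. That share was 48.5% when libraries were centred on their medians, 50.2% under quantile normalization, 73.8% with TPM and 76% after centring on cardiac muscle structural genes. In whole myocardium, fewer muscle cells and less RNA per muscle cell cannot be told apart.

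**Figure D1:**
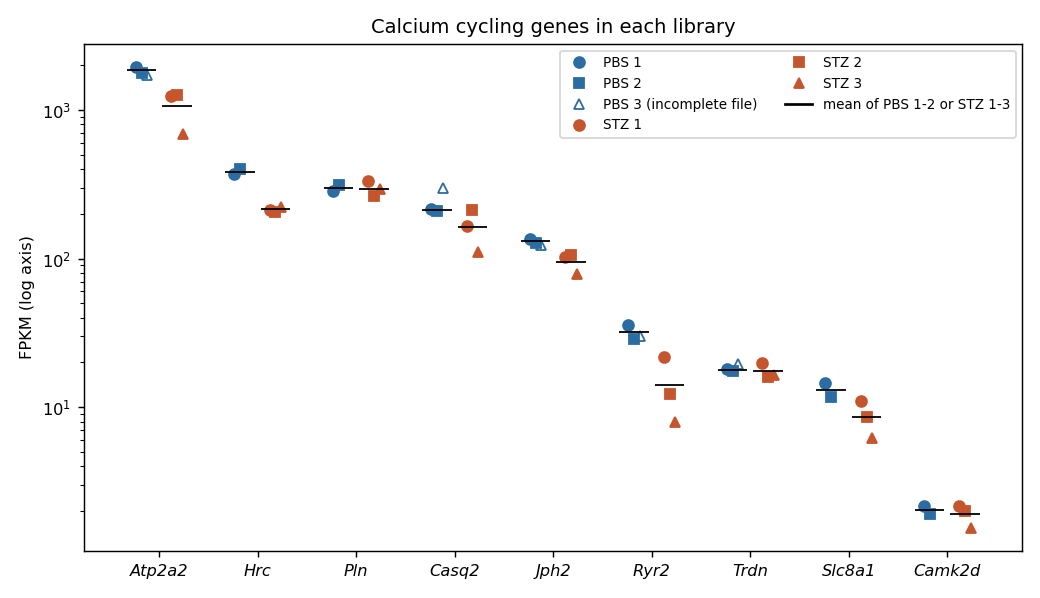
FPKM of the 9 genes (log axis) in each library, with PBS in blue, STZ in orange, the symbol giving the replicate and the black line the mean of PBS replicates 1 and 2 or of the 3 STZ replicates. The open triangle is PBS replicate 3, listed for 5 genes. Hrc, Atp2a2, Ryr2, Jph2 and Slc8a1 separate by group, and Pln, Trdn, Casq2 and Camk2d overlap.

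Atp2a2 (ENSMUSG00000029467, chromosome 5, 122453513 to 122502225, minus strand, GRCm38) encodes SERCA2, the calcium pump of the cardiac reticulum. It stood at 1943, 1771 and 1727 FPKM in PBS replicates 1, 2 and 3, and at 1236, 1256 and 684 FPKM in STZ replicates 1, 2 and 3. The groups did not overlap, and STZ replicate 3 lay far below the other STZ libraries. The log2 fold change was -0.86 ± 0.28 (SE), with a 95% interval from -1.53 to -0.19 and a limma adjusted p of 0.116. Without STZ replicate 3 the spread was smaller, and a log2 fold change of -0.57 passed (limma adjusted p = 0.0486). Across 20 alternatives the log2 fold change of Atp2a2 lay between -1.01 and -0.57, and it passed in 2 of them. Among genes of the nuclear genome, Atp2a2 ranked 13 by mean FPKM in PBS and 20 in STZ.

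Pln (ENSMUSG00000038583, chromosome 10, 53337667 to 53345987, plus strand), which encodes the pump inhibitor phospholamban, was at 284 and 315 FPKM in PBS replicates 1 and 2. The STZ libraries had 330, 262 and 294 FPKM, so that the STZ range contained both PBS values. The log2 fold change was -0.02 ± 0.14 (SE, limma adjusted p = 0.925), with a 95% interval from -0.36 to 0.31. Exons of genes on the opposite strand cover 64.7% of the exon bases of Pln. Of these the noncoding gene Gm47644 covers most, and it was listed at 3.77 and 4.48 FPKM in PBS and at 4.72, 5.33 and 16.4 FPKM in STZ. These values are far below those of Pln. The libraries were strand-marked with dUTP, but whether the counting used the strand is not given in the sources used here. How reads of the shared bases were divided between Pln and Gm47644 is therefore unknown. The second inhibitor of this pump, sarcolipin (Sln), is an atrial gene. It was at 31.6 and 5.64 FPKM in PBS and at 37.1, 4.54 and 0 FPKM in STZ, following the atrial Myl7 values given above.

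The ratio of Pln to Atp2a2 was 0.146 and 0.178 in PBS replicates 1 and 2 and 0.267, 0.209 and 0.429 in STZ replicates 1, 2 and 3. Every STZ library had a higher ratio than either PBS library, and the PBS mean was 0.162 ± 0.022 (SD, n = 2) while the STZ mean was 0.302 ± 0.114 (SD, n = 3). A scaling factor of a library cancels in such a ratio. The ratio is of RNA levels, and neither protein levels nor calcium uptake were measured in these data. The mean log2 ratio was higher by 0.84, a factor of 1.79, which exceeded the larger group SD of 0.53. It was 0.55 without STZ replicate 3 and 1.07 without STZ replicate 2. The exact permutation test over libraries (two-sided) gave p = 0.2, the smallest that this test allows with 2 against 3 libraries, so the test cannot reach 0.05 for a ratio. Adjusted over the 9 ratios tested the exact p was 0.36. PBS replicate 3 does not list Pln and adds nothing here.

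Ryr2 (ENSMUSG00000021313, chromosome 13, 11553102 to 12106945, minus strand) encodes the cardiac ryanodine receptor, through which the reticulum releases its calcium. It was at 35.6, 28.9 and 30.3 FPKM in PBS and at 21.8, 12.4 and 7.95 FPKM in STZ. Every STZ library lay below every PBS library, and the STZ libraries spread widely. The log2 fold change was -1.24 ± 0.37 (SE), with a 95% interval from -2.15 to -0.34 and a limma adjusted p of 0.101. Without STZ replicate 1 it was -1.60 and passed (limma adjusted p = 0.0429). Without STZ replicate 3 it was -0.92 (limma adjusted p = 0.136). Ryr2 has 28790 exon bases, the most of the 9 genes. The 173 tested genes of over 16 kb of exon had a median log2 fold change of 0.05, and a median of -0.02 in STZ replicate 3 alone. The 1308 genes of under 1 kb of exon had medians of 0.23 and 0.31, so that the median was higher for the shortest genes, and the part of length in the Ryr2 difference was not tested.

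Hrc (ENSMUSG00000038239, chromosome 7, 45335290 to 45338974, plus strand) encodes the histidine-rich calcium-binding protein of the reticulum lumen, which binds both triadin and SERCA2. It was at 369 and 399 FPKM in PBS replicates 1 and 2 and at 213, 206 and 223 FPKM in STZ replicates 1, 2 and 3. The STZ values were close together and all below PBS. The log2 fold change was -0.84 ± 0.11 (SE), with a 95% interval from -1.11 to -0.57, and it passed (limma adjusted p = 0.0179). Hrc had a log2 fold change close in size to that of Atp2a2, but a smaller standard error. The call was lost without PBS replicate 1 (log2 fold change -0.90, limma adjusted p = 0.147) and without PBS replicate 2 (-0.78, limma adjusted p = 0.178), with no filter (-0.84, limma adjusted p = 0.0621), after centring on cardiac muscle structural genes (-0.75, limma adjusted p = 0.0626) and with the replicate number as a block (-0.87, limma adjusted p = 0.0588). Set against cardiac muscle genes in the same library, Hrc came to 2.13% of the FPKM of 12 structural genes in both PBS libraries and to 1.42%, 1.42% and 1.24% in the STZ libraries. On this measure Atp2a2 and Ryr2 also stayed apart by group, but Jph2 and Slc8a1 overlapped. Jph2 came to 0.778% and 0.676% in PBS and 0.68%, 0.725% and 0.436% in STZ. Slc8a1 came to 0.0845% and 0.062% in PBS and 0.0735%, 0.0587% and 0.0343% in STZ.

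Casq2 and Trdn, the partners of Hrc in the lumen and at the release channel, overlapped between groups. Casq2 (ENSMUSG00000027861, chromosome 3, 102086415 to 102146514), the cardiac calsequestrin that buffers calcium in the reticulum, was at 214, 209 and 298 FPKM in PBS and at 165, 213 and 111 FPKM in STZ. The groups overlapped (log2 fold change -0.42, limma adjusted p = 0.354), and PBS replicate 3 had the highest value. Without STZ replicate 3 the log2 fold change was -0.17, and without STZ replicate 2 it was -0.64. Trdn (ENSMUSG00000019787, chromosome 10, 33080554 to 33476709) encodes triadin, which anchors calsequestrin to the channel. It was at 18.1, 17.6 and 19.4 FPKM in PBS and at 19.8, 15.9 and 16.4 FPKM in STZ, again with overlap (log2 fold change -0.04, 95% interval -0.38 to 0.29, limma adjusted p = 0.864).

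Jph2 (ENSMUSG00000017817, chromosome 2, 163336242 to 163397993, minus strand) encodes junctophilin 2, which holds the reticulum close to the surface membrane. It was at 135, 127 and 123 FPKM in PBS and at 102, 105 and 78.5 FPKM in STZ. All STZ libraries lay below all PBS libraries, at a mean of 72.8% of PBS replicates 1 and 2. The log2 fold change was -0.47 ± 0.16 (SE), and it did not pass (limma adjusted p = 0.132).

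Slc8a1 (ENSMUSG00000054640, chromosome 17, 81373105 to 81738377, minus strand), the sodium-calcium exchanger of the surface membrane, was at 14.6 and 11.6 FPKM in PBS and at 11.0, 8.52 and 6.18 FPKM in STZ. The groups came close without overlapping. The log2 fold change was -0.59 ± 0.23 (SE), with a 95% interval from -1.15 to -0.02 (limma adjusted p = 0.175). Camk2d (ENSMUSG00000053819, chromosome 3, 126596302 to 126846326) encodes a cardiac form of the calcium and calmodulin dependent kinase that phosphorylates phospholamban and the ryanodine receptor. Its level was the lowest of the 9. It was at 2.16 and 1.92 FPKM in PBS and at 2.17, 2 and 1.54 FPKM in STZ, with overlapping groups (log2 fold change -0.07, 95% interval -0.43 to 0.28, limma adjusted p = 0.788). At this level the log2(FPKM + 1) scale understates a change.

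**Figure D2:**
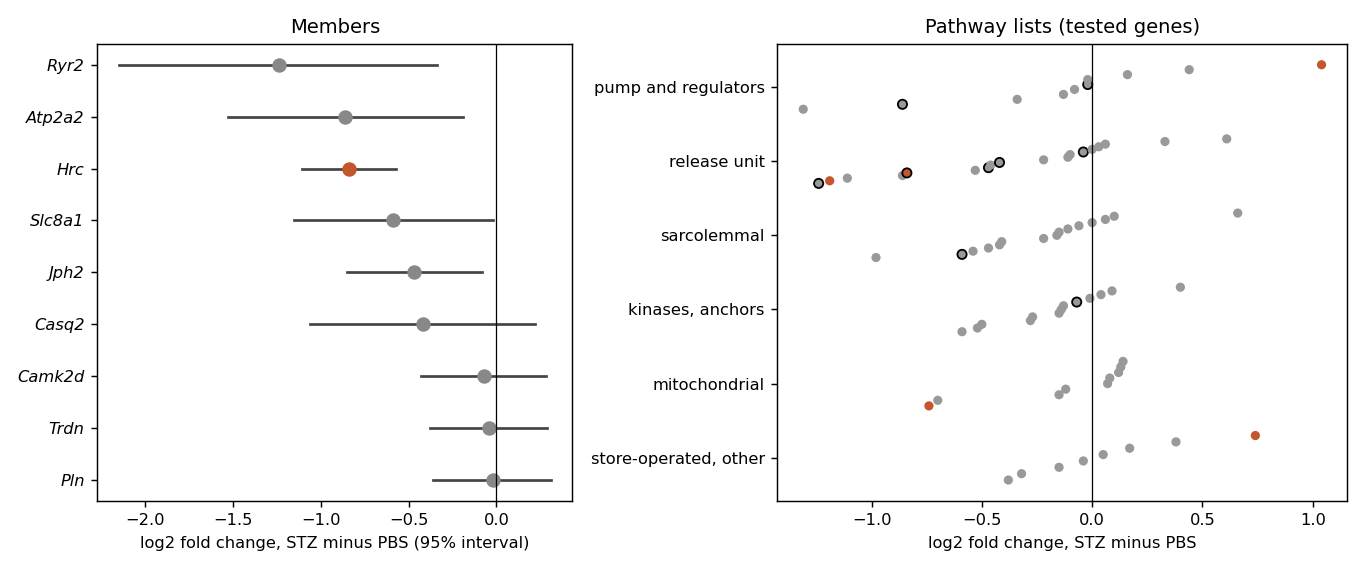
Left, log2 fold change (STZ minus PBS) of the 9 genes with 95% intervals from limma. Right, log2 fold changes of the tested genes of 6 pathway lists, members outlined in black. Orange marks an adjusted p under 0.05: among the 9 genes only Hrc passed, while Ryr2 and Atp2a2 had larger differences with wider intervals.

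The libraries of the STZ group were not alike. STZ replicate 3 had the lowest value of the 3 for 6 of the 9 genes (Atp2a2, Ryr2, Casq2, Slc8a1, Camk2d and Jph2), and STZ replicate 2 for Pln, Hrc and Trdn. The summed FPKM of the 9 genes was 3010 and 2880 in PBS and 2100, 2080 and 1420 in STZ replicates 1, 2 and 3. Atp2a2 alone made up 64.4% and 61.5% of that sum in PBS and 58.9%, 60.4% and 48.1% in STZ. In STZ replicate 3 the atrial genes Myl7 and Myl4 were at 0.28 and 0.21 FPKM and Sln was listed at 0, while Nppa, which stressed ventricles also express, was at 1591 FPKM. Myl7 was as low in PBS replicate 3 (0.21 FPKM), where Atp2a2 was at 1727 and Ryr2 at 30.3 FPKM. The summed FPKM of the 12 cardiac muscle structural genes was 17300 and 18800 in PBS and 15000, 14500 and 18000 in STZ. The part of atrial or muscle content in the low values of STZ replicate 3 was not tested.

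**Figure D3:**
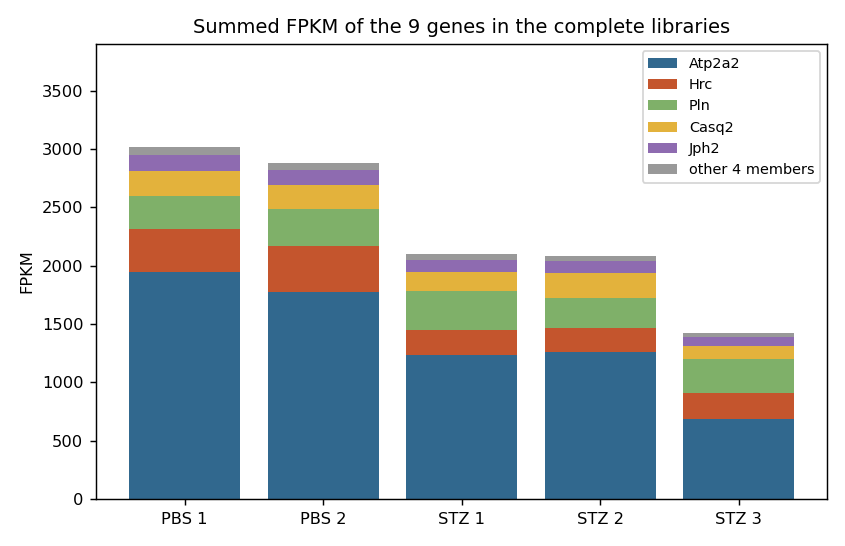
Stacked FPKM of the 9 genes in the 5 complete libraries, with the 4 lowest genes (Ryr2, Trdn, Slc8a1 and Camk2d) together in grey. The sum was 3010 and 2880 in PBS and 2100, 2080 and 1420 in STZ. Atp2a2 is the largest part of each bar, at 48.1% in STZ replicate 3.

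The order of the levels differed between the groups. In PBS the order by mean FPKM was Atp2a2, Hrc, Pln, Casq2, Jph2, Ryr2, Trdn, Slc8a1 and Camk2d. The ranges of PBS replicates 1 and 2 did not touch between any neighbours in it. PBS replicate 3 had Casq2 at 298 FPKM, between the Pln values of PBS replicates 1 and 2, and does not list Pln. In STZ, Pln stood above Hrc in 3 of 3 libraries, whereas Hrc stood above Pln in 2 of 2 PBS libraries. Trdn stood above Ryr2 in 2 of 3 STZ libraries. Neighbours whose STZ ranges overlapped were Hrc and Casq2, Trdn and Ryr2, and Ryr2 and Slc8a1.

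Ratios within a library put the partners of the release channel side by side. Trdn to Ryr2 was 0.510, 0.609 and 0.641 in PBS and 0.907, 1.29 and 2.07 in STZ. The groups were apart with all 6 libraries, and the mean log2 ratio was higher by 1.27 with PBS replicates 1 and 2 and by 1.20 with all 3 (exact permutation p = 0.2 and 0.1, the smallest this test allows). Jph2 to Ryr2 was 3.79, 4.39 and 4.05 in PBS and 4.66, 8.53 and 9.88 in STZ, also apart (log2 difference 0.85, exact permutation p = 0.1 with all 6 libraries). Casq2 to Ryr2 was 6.01, 7.21 and 9.82 in PBS and 7.58, 17.2 and 14.0 in STZ, which overlapped once PBS replicate 3 was counted. These ratios share Ryr2 as the denominator and are not independent of each other.

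Hrc to Trdn was 20.3 and 22.7 in PBS and 10.8, 12.9 and 13.6 in STZ, lower by a log2 difference of -0.80 (exact permutation p = 0.2, the smallest this test allows). Its larger group SD of 0.18 on the log2 scale was well under that difference. Trdn itself overlapped between groups, so this ratio largely repeats the Hrc difference and is not independent of it. Ryr2 to Atp2a2 was 0.0183, 0.0163 and 0.0175 in PBS and 0.0176, 0.00983 and 0.0116 in STZ. The groups overlapped, and the log2 difference of -0.45 was close to the larger group SD of 0.43 (exact permutation p = 0.4). It was -0.69 without STZ replicate 1 and -0.27 without STZ replicate 2. Slc8a1 to Atp2a2 (log2 difference 0.22, exact permutation p = 0.4) and Camk2d to Pln (-0.09, exact permutation p = 1) overlapped too. Hrc to Atp2a2 was 0.190 and 0.226 in PBS and 0.172, 0.164 and 0.327 in STZ, with a log2 difference of 0.02 whose sign rested on STZ replicate 3 (-0.30 without it).

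**Figure D4:**
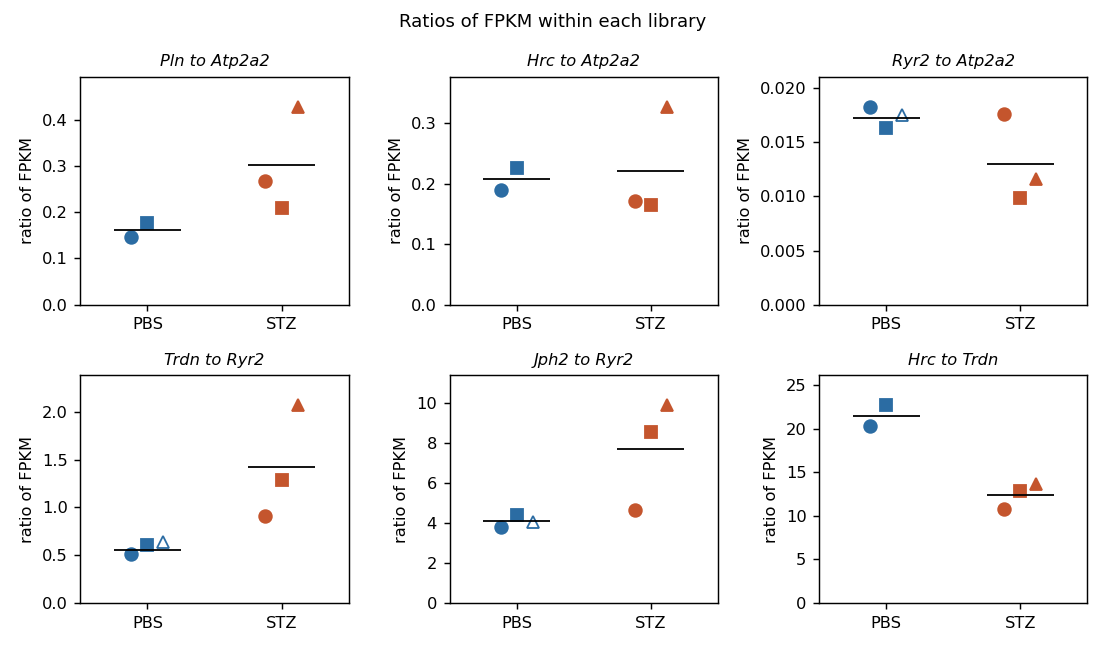
Ratios of FPKM within each library (axes start at 0), with circle, square and triangle for replicates 1, 2 and 3, the open triangle for PBS replicate 3 and lines for the mean of PBS replicates 1 and 2 or of the STZ replicates. Pln to Atp2a2, Trdn to Ryr2 and Jph2 to Ryr2 were higher and Hrc to Trdn lower in every STZ library, and the other panels overlap.

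With PBS replicate 3 included, over the 4824 tested genes of all 6 files, 3 of the 5 genes it lists passed as lower. They were Atp2a2 (log2 fold change -0.83, limma adjusted p = 0.0346), Ryr2 (-1.22, limma adjusted p = 0.0264) and Jph2 (-0.44, limma adjusted p = 0.0443). In this comparison 7.9% of all genes passed as lower. That fit has 1 more library and adjusts over fewer genes. With that library added but p adjusted over all 11569 tested genes, Ryr2 (limma adjusted p = 0.0516), Atp2a2 (0.0628) and Jph2 (0.0774) did not pass.

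Of the 74 other genes in 6 lists of calcium handling, 64 were tested, and 2 rose and 2 fell (limma, adjusted over all genes), with a median log2 fold change of -0.11. Over all genes tested 3.64% rose and 2.17% fell, so these calls were near the background. At an unadjusted limma p under 0.05, 14 of the 64 were lower and 5 higher, where 10.2% and 16.4% of all tested genes were. Around the pump, 1 of 8 tested genes rose. It was Atp2a3, the SERCA3 pump of non-muscle cells, at 1.97, 2.69 and 1.89 FPKM in PBS and 5.64, 5.19 and 6.69 FPKM in STZ (log2 fold change 1.04, limma adjusted p = 0.0245). Against Atp2a2 this is a low level. The catalytic subunits of protein phosphatase 1, which dephosphorylates phospholamban, did not pass: Ppp1ca had a log2 fold change of 0.16, Ppp1cb of -0.08 and Ppp1cc of -0.13.

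In the list of the release unit 1 of 13 other tested genes fell and 0 rose, and 5 were lower and 1 higher at an unadjusted limma p under 0.05. Casq1, the calsequestrin of skeletal muscle, was at 2.65, 3.26 and 1.13 FPKM in PBS and 0.69, 0.76 and 0.75 FPKM in STZ (log2 fold change -1.19, limma adjusted p = 0.0124). Sarcalumenin (Srl), a luminal calcium-binding protein, was at 173, 155 and 156 FPKM in PBS and 89.9, 87.1 and 54.3 FPKM in STZ, without overlap. Its log2 fold change of -1.11 stood just outside the threshold (limma adjusted p = 0.0501). The reticulum cation channel Tmem38a (-0.46, limma adjusted p = 0.0806) and the ryanodine receptor regulator S100a1 (-0.22, limma adjusted p = 0.443) did not pass.

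Of 14 other genes of calcium entry and extrusion 0 passed in limma, with 4 lower and 1 higher at an unadjusted p under 0.05, beside the 10.2% and 16.4% of all tested genes given above. Among the most abundant of them was the small GTPase Rrad, a brake on calcium channels, with a log2 fold change of 0.06. Of 12 kinase, anchor, phosphatase and phosphodiesterase genes 0 passed in limma and 3 were lower at an unadjusted p under 0.05, with Prkar1a at a log2 fold change of -0.27, Prkaca at -0.14 and Ppp2ca at -0.01. Of 9 mitochondrial calcium genes Letm1, an inner-membrane protein linked to ion exchange, fell from 11.2 and 11.1 to 6.26, 6.49 and 5.95 FPKM (log2 fold change -0.74, limma adjusted p = 0.0245), with 9.84 FPKM in PBS replicate 3. The outer-membrane channels Vdac1 (0.08) and Vdac2 (0.13) and the uniporter subunit Smdt1 (0.07) did not pass. Of 8 genes of store-operated entry and reticulum chaperoning Saraf, a brake on store-operated entry, rose from 71.2 and 81.4 to 122, 148 and 115 FPKM (log2 fold change 0.74, limma adjusted p = 0.0468). Calr (-0.38), Canx (-0.32) and Calu (0.05) did not pass.

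Markers of other cells were measured beside these results. Among all tested genes 2.17% passed as lower and 3.64% as higher in limma. At an unadjusted limma p under 0.05, 10.2% were lower and 16.4% higher. Of 5 atrial markers 4 were tested and 0 passed in limma, with a summed level of 1330 and 303 FPKM in PBS and 3310, 961 and 1590 FPKM in STZ replicates 1, 2 and 3, mostly Nppa. Of 4 adipocyte markers 1 was tested and did not pass (Cfd, log2 fold change -1.10), and Lep was listed at 0 in the 5 libraries. Of 12 cardiac muscle structural genes 0 passed in limma (median log2 fold change -0.15), with 4 lower and 1 higher at an unadjusted p under 0.05. Of 12 skeletal muscle markers 3 were tested and 3 fell, Acta1, Casq1 and Ckm, of which Acta1 and Ckm are also expressed in the heart, while Ryr1 was at or below 0.03 and Atp2a1 at or below 0.44 FPKM in the 5 libraries. Of 7 fibroblast markers 3 fell (Col1a1, Col1a2 and Col3a1), while 2 others, Dcn (log2 fold change 0.38) and Pdgfra (0.37), were higher at an unadjusted limma p under 0.05 and did not pass. Of 6 smooth muscle and pericyte markers 1 fell (Acta2), and at an unadjusted limma p under 0.05, Acta2 included, 2 were lower and 1 higher (Pdgfrb, log2 fold change 0.41). The 6 endothelial and 5 macrophage markers had 0 calls in limma, with 1 endothelial gene higher and 2 macrophage genes lower at an unadjusted p under 0.05. Of 4 neutrophil markers 3 were tested and rose, with a summed level of 3.29 and 7.46 FPKM in PBS and 40.4 to 56.8 FPKM in STZ. Their part in the differences of the 9 genes was not tested.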

How the data were processed

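RNA was poly(A)-selected and the second cDNA strand marked with dUTP, per the labels' protocols. The authors deposited FPKM values, 1 per gene and library, with 2 decimals. Per the submitters' processing notes, the tools were cutadapt 1.9, HISAT2 2.0.4 and StringTie 1.3.4d, and the build was GRCm38. Neither strand setting nor annotation release is given in the sources used here. Identifiers were matched to symbols and positions with GENCODE M21 of the same build (55141 of 55401 had a symbol).

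A gene entered the test if 2 or more of the 5 complete libraries had 1 FPKM or more. The scale was log2(FPKM + 1), and the tool was limma 3.58.1 under R 4.3.3 (pseudocount 1, eBayes with trend, two-sided, Benjamini-Hochberg over all 11556 genes, threshold 0.05, no covariate). A file listing under 50% of the genes was left out of this fit. All 9 genes reached 1 FPKM in every complete library. The members and lists were chosen with earlier results of these data known. Of the lists' other genes, those past the threshold and the 3 most abundant others of each list are named, except some that are not reported here. Sln and the antisense gene are named besides, chosen after their values were seen. Ratios were compared with exact permutation tests (scipy 1.17.1), and Sln to Atp2a2 was not tested because Sln was listed at 0 in 1 library. The fit was tested on simulated data. Recovery of a log2 change of 2 first fell below the limit set for it, and that limit was then lowered. With so few libraries, a gene that did not pass may still have changed. Alternatives covered the pseudocount, filter, scaling, variance model, threshold, replicate number and libraries.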

Additional observations from a re-analysis of the deposited data

How the results depend on the processing

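Among the 9 genes, Atp2a2, Ryr2, Casq2, Slc8a1, Hrc and Jph2 kept a negative sign under every alternative run, and Hrc passed in 14 of 19, with a log2 fold change between -0.92 and -0.75. The signs of Pln, Trdn and Camk2d, near 0, were not stable. With 1 library left out they ranged from -0.11 to 0.06 for Pln and from -0.14 for both others, to 0.01 for Trdn and 0.02 for Camk2d. Pln turned to 0.04 with TPM, 0.07 after centring on cardiac muscle structural genes, 0.05 without PBS replicate 2 and 0.06 without STZ replicate 2. Trdn turned to 0.02, to 0.05 and, without STZ replicate 2, to 0.01, and Camk2d to 0.02 after that centring, with the replicate block and without STZ replicate 3. Of the 9 genes 0 passed as lower with no filter, after centring on cardiac muscle genes and with the replicate block, 0 to 2 with 1 library left out, and 3 over the genes of all 6 files, a choice made after seeing the data. Of all 73 tested genes of the calcium lists, the 9 included, 3 passed as lower and 2 as higher. As lower and as higher these were 0 and 0 with no filter, where 26229 genes are tested and 81 pass, and 5 as lower with at least 5 FPKM, with robust eBayes and with PBS replicate 3 added. They were 6 and 1 after median centring, 7 and 1 after quantile normalization, 1 and 1 after centring on cardiac muscle genes, 8 and 4 at a threshold of 0.1, and 10 as lower over the genes of all 6 files. As higher, 1 passed with TPM, without mitochondrial and haemoglobin genes in the total, and with no trend. With 1 library left out, 0 to 5 passed as lower and 0 to 1 as higher. Over all genes, 24 and 29 passed without PBS replicate 1 or 2, where the lone PBS library is assumed to vary like the STZ group, and 348 to 398 without an STZ library. The cause of these changes was not tested.

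Same-numbered PBS and STZ libraries deviated together by correlations across 4811 genes of 0.176, -0.05 and 0.15. PBS replicates 1 and 3 correlated best with the STZ library of the same number, and PBS replicate 2 with STZ replicate 3 (0.093). Myl7 was also highest in replicate 1 and lowest in replicate 3 of both groups. The main fit took no pairing, and whether the numbers pair samples cannot be told from these values. With the replicate number as a block, where STZ replicate 3 has no partner, 64 genes passed over all, 0 of the 9 genes and, of the calcium lists, 0 as lower and 0 as higher. Hrc then had a log2 fold change of -0.87 (limma adjusted p = 0.0588). The log2 difference of Hrc to Atp2a2 was -0.30 with the block, between -0.30 and 0.20 with 1 library left out, and -0.03 from group means. That of Camk2d to Pln was 0.06 with the block and between -0.25 and 0.07 with 1 library left out. The other 7 ratios kept their sign under every alternative run. Depth is unknown, which limits the reading of Camk2d near 2 FPKM.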
